A study of Mus musculus with 28 samples.

Results

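The genes described here are the nuclear genes named for subunits of the oxidative phosphorylation system of mouse mitochondria. They were taken from the gene names of the array by their name patterns: Nduf followed by a, b, c, s or v and a digit, Sdha to Sdhd, Uqcr, Cox4 to Cox8, Atp5, and the single names Cyc1 and Cycs. The patterns matched 82 genes among the 27962 names on the array, and 81 of them had a brightest probe well above background on 3 or more of the 28 arrays, as did 22678 genes in all. The gene not kept was Cox8c, a testis isoform of a complex IV subunit, whose probe was above background on 2 arrays. Of the 81 genes kept, 34 belong to complex I, 4 to complex II, 8 to complex III, 16 to complex IV and 15 to complex V, 1 is cytochrome c, and 3 carry a matching name but are not subunits: Cox4nb, of the endoplasmic reticulum membrane complex, Cox7a2l, a factor that joins complexes III and IV, and Atp5s, a coupling factor of the synthase. Ndufa4, once named for complex I, is counted under complex IV, where it is now known to reside.

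The study asked how priming with a cytokine changes the transcriptome of macrophages and their answer to a bacterial stimulus. Bone marrow cells of C57BL6/J mice, pooled over 2 males and 1 female of 8 to 12 weeks, were grown into macrophages with the growth factor CSF1 at 200 ng/ml, which every group received. On day 7 the cultures were left unprimed or received IL-4 at 10 ng/ml or IFN-γ at 100 U/ml for 18 h, and LPS, lipopolysaccharide of the bacterial outer membrane, was given at 10 ng/ml for the last 4 h to a matching set of cultures. The groups held 7 arrays untreated, 7 with LPS alone, 4 with IL-4, 4 with IL-4 and then LPS, 3 with IFN-γ and 3 with IFN-γ and then LPS, each array hybridised with 1 RNA sample in 1 colour and lettered by experiment. The design text speaks of independent experiments, but the animals behind each letter are not given, so the spread between arrays may be partly technical.

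Oxidative phosphorylation is the last stage of respiration. Complex I and complex II pass electrons from NADH and succinate to coenzyme Q, complex III passes them to cytochrome c and complex IV to oxygen, and the protons pumped on the way drive the ATP synthase, complex V. In macrophages, activation by IL-4 is known for reliance on respiration and fatty acid oxidation, and activation by LPS with IFN-γ for reliance on glycolysis. Complex II is also an enzyme of the citrate cycle. The subunits encoded by mitochondrial DNA were not analysed here: of 26 name forms searched, 0 were among the gene names of the array.

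Promoters of 5 of the genes that the results turn on are printed from RefSeq's tables (GRCm38.p6), from 250 bases before to 50 after the start of transcription, on the gene's own strand. All 82 genes matched that annotation, and 66 of them had a promoter there. Capitals mark exact matches to short words of 4 factors known to act at such promoters, searched on both strands: GCGCATGCG for NRF1 (which overlaps its own reverse complement), CCGGAAGT for GABPA, TCAAGGTCA for the oestrogen-related receptors and AAGATGGCG for YY1. Cycs (cytochrome c) lies at chr6:50566520-50566819, minus strand, and holds an NRF1 word, as does Uqcrc1 (a core subunit of complex III) at chr9:108936398-108936697, plus strand. Cox8a (a small subunit of complex IV) at chr19:7217567-7217866, minus strand, holds the GABPA word at 2 positions. Atp5g3 (a gene for the c-ring subunit of complex V) at chr2:73911277-73911576, minus strand, holds the receptor word, and Ndufs4 (an accessory subunit of complex I) at chr13:114388045-114388344, minus strand, holds the YY1 word.
Cycs: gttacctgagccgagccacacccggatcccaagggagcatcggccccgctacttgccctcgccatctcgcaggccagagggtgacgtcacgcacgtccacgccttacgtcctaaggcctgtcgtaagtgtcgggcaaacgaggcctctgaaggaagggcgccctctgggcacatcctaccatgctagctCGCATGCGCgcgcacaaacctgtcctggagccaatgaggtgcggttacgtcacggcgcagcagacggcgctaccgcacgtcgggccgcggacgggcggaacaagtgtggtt
Uqcrc1: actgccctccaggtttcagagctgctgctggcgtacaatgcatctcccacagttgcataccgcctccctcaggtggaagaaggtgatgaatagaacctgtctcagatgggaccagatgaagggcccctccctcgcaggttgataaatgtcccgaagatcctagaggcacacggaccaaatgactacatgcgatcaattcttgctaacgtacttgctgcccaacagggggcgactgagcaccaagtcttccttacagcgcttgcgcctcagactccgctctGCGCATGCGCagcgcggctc
Cox8a: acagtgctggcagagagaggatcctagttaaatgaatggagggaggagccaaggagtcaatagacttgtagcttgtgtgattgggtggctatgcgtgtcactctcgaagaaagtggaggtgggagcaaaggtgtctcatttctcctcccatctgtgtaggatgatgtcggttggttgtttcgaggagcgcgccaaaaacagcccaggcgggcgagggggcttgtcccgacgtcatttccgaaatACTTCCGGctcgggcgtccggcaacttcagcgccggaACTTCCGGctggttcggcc
Atp5g3: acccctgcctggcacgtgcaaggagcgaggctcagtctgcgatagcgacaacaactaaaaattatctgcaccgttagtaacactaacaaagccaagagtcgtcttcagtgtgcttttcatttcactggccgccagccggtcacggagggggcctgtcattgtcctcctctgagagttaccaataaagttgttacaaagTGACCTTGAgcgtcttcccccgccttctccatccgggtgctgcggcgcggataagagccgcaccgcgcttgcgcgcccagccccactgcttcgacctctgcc
Ndufs4: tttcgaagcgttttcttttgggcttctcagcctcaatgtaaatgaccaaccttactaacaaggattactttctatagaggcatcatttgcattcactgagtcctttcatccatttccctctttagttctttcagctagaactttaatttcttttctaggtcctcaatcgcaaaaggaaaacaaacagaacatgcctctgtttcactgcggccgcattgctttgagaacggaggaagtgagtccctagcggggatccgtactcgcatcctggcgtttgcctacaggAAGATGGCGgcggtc

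The NRF1 word was in 12.7% of the 71 promoters of these genes and in 1.75% of all 32851 promoters of the table. The YY1 word was in 9.86% against 1.4%, the receptor word in 2.82% against 0.423%, and the GABPA word in 7.04% against 3.89%. By gene, 9 of 66 held the NRF1 word, 7 the YY1 word, 5 the GABPA word and 2 the receptor word. Every promoter printed above holds a word, but most of the 66 genes held none. Atp5g1, Ndufb5, Cox5a, Cox7a1 and Atp5s, also named below, have promoters with none of these words, which were not printed. A match is a description of these letters and not a binding site.

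Levels are given as the log2 of the background-subtracted spot signal minus the log2 of the array's 75th percentile, so a level of 0 is a probe at that percentile and a difference of 1 is a doubling. Levels of different genes come from different probes and are not compared. Array by array, that percentile was between 582 and 2113 intensity units, 60.3% to 78.7% of probes were well above background, and the number of arrays limits the precision. Treatment marker genes followed the labels: Il1b lay at 6.28 or more on every array with LPS and at 4.30 or less on every other, Retnla at 7.28 or more on every array with IL-4 and at -6.60 or less without it, and Cxcl9 at 6.94 or more on every array with IFN-γ against -2.74 or less in untreated cells. The untreated array of experiment G stood apart most, with a median correlation of 0.96 to the other untreated arrays against 0.975 to 0.98 for the rest. Slides scanned on the same day form a set where no group repeats among them, and otherwise each slide is a set, giving 7. A set was named by the letter of its IL-4 or IFN-γ array, so the letters of those arrays match by construction. The set without such an array took the letter left over. Elsewhere the letter named the same set on all IFN-γ plus LPS arrays and on 2 of 4 IL-4 plus LPS arrays. It did so on 2 of 7 untreated and 0 of 7 LPS arrays. Each difference was therefore also read within the slide sets that hold both groups. The treated arrays of slide set G were the dimmest, with median intensities of 31.3 to 44.2 against 64.2 or more on all others. On them 60.3% to 63% of probes were well above background, and all genes had medians of -0.47 to -0.30 from the untreated mean. In each treated group the array of set G had the largest excess of the 81 genes over all genes, from 0.68 to 1.15. The part of this in the differences below was not tested.

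Of macrophage marker genes, 6 of 6 on the array were kept, with a summed level between 8.33 and 9.77 over all arrays. Being kept tells no cell type: all 6 neutrophil, 5 T cell, 5 B cell and 4 stromal genes on the array were kept too. Among markers of other cells, the summed level of 6 neutrophil genes lay between 3.67 and 5.62, that of 5 B cell genes between -0.42 and 2.84, that of 5 T cell genes between -2.30 and 2.32, and that of 4 stromal genes between -2.29 and 2.45. RNA was measured in bulk, so a smaller number of cells of a type and less RNA per cell cannot be told apart.

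Under IL-4 alone, genes of all 5 complexes rose. Of the 81 genes, 64 were called higher than in untreated macrophages and 0 lower, by limma with Benjamini-Hochberg adjustment over all genes, against a background of 5.71% of all genes called higher and 5.53% lower. Of the 64, 20 were called in all 3 array scalings compared below. The difference was above 0 for 80 of the 81 genes, with a median of 0.65 on the log2 scale where the median of all genes was 0.01. It ran from -0.24 for Cox4i2, the lung isoform of a complex IV subunit, to 1.10 for Atp5g1. The 4 IL-4 arrays had a median difference over the 81 genes of 0.53, 0.68, 0.71 and 0.60 from the untreated mean, and the 7 untreated arrays ran from -0.17 to 0.27, so the groups did not overlap.

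**Figure D1:**
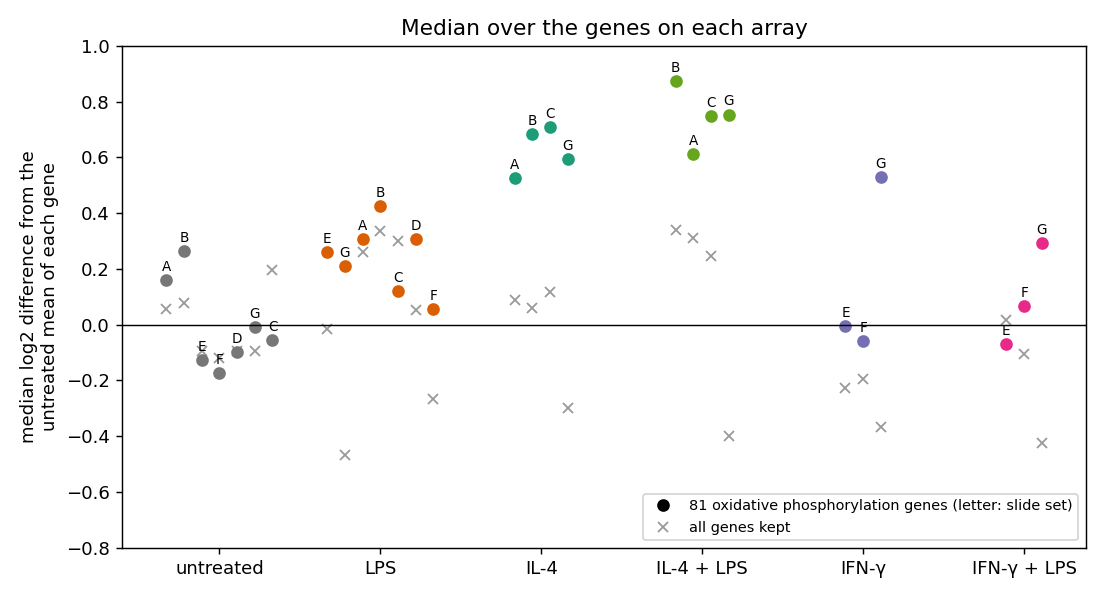
Median over the 81 genes of each array's difference from the untreated mean (vertical axis, log2 units) for the 6 groups (horizontal axis). Each point is 1 array labelled by its slide set and each cross is the median of all genes on that array. The 4 IL-4 arrays lie between 0.53 and 0.71, above every untreated array. The IFN-γ array of set G at 0.53 stands apart from the other IFN-γ arrays at -0.01 and -0.06. The treated arrays of set G were the dimmest.

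In complex I, 25 of 34 genes rose under IL-4, with a median difference of 0.60. Ndufb5, an accessory subunit of the membrane arm, ran from 0.57 to 1.36 in untreated cells (median 1.13) and lay between 1.76 and 2.23 with IL-4. The IL-4 arrays were all above the untreated ones, a difference of 0.94 ± 0.17 (SE; adjusted p = 0.000419). Ndufc1, another accessory subunit, rose by 0.91 ± 0.22 (adjusted p = 0.00660). Ndufv1, which holds the flavin that takes electrons from NADH, rose by 0.50, and Ndufs1, the largest iron-sulfur subunit, by 0.48, a call that was lost without the IL-4 array of experiment G (adjusted p = 0.0675). Ndufs4 lay at 3.54, 3.71, 3.49 and 3.61 with IL-4 against 3.05 to 3.44 in untreated cells. These ranges did not overlap, but the difference of 0.41 did not pass the test (adjusted p = 0.0823).

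All 4 genes of complex II were called higher under IL-4, with a median difference of 0.54. They are not among the 20 genes called in all 3 array scalings, which are named below. Sdhd, which anchors the complex in the membrane, ran from 3.96 to 4.40 in untreated cells and from 4.70 to 5.06 with IL-4. The ranges did not overlap, and the difference was 0.69 (adjusted p = 0.000188). Sdhb, the iron-sulfur subunit, lay at 4.76, 4.85, 5.04 and 4.53 with IL-4 against 3.97 to 4.50 untreated, a difference of 0.57 (adjusted p = 0.00851). Without the IL-4 array of experiment C the adjusted p of Sdhb was 0.0501. Sdhc, the other anchor, differed by 0.51 (adjusted p = 0.0177), a call lost without the IL-4 array of B, C or G (adjusted p = 0.0598, 0.0572 and 0.0630). A second, dim probe of Sdhc was above background on 6 arrays, and the mean of both probes differed by -0.08. Sdha, the flavoprotein that oxidises succinate, differed by 0.37 (adjusted p = 0.0448), and this call was lost when any single array of the comparison was left out.

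All 8 genes of complex III rose, with a median difference of 0.82, and so did cytochrome c. Of these, Cyc1, Uqcrfs1 and Uqcrq were called in all 3 array scalings compared below. Uqcrc1 lay at 5.55, 5.49, 5.72 and 5.96 with IL-4 and ran from 4.36 to 5.09 in untreated cells (median 4.56). Every IL-4 array was above every untreated one, a difference of 1.03 ± 0.21 (adjusted p = 0.00134). Uqcrfs1, the Rieske iron-sulfur protein, rose by 0.86 (adjusted p = 0.00380), and Cyc1, cytochrome c1, by 0.86 ± 0.16 (adjusted p = 0.000419). Cycs lay at 5.00, 5.11, 5.00 and 5.11 with IL-4 against 3.28 to 4.82 untreated (median 4.34). The lowest untreated value was that of experiment G. The groups did not overlap, and the rise of 0.82 ± 0.23 (adjusted p = 0.0169) lost its call without the IL-4 array of B (adjusted p = 0.0509) or G (adjusted p = 0.0511).

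In complex IV, 10 of 16 genes rose under IL-4 and 0 fell. Cox8a lay at 6.13, 6.21, 6.57 and 6.29 with IL-4 against 4.87 to 5.58 in untreated cells, without overlap. Its rise was 1.05 ± 0.17 (adjusted p = 7.93e-05). Cox5a, which faces the matrix, rose by 0.79 (adjusted p = 0.000386), though the mean with its second, dim probe, above background on 16 arrays, gave 0.08. Cox4i1, the common isoform of subunit 4, rose by 0.47. All 15 genes of complex V rose, with a median of 0.70. Atp5g1, which encodes the same c-ring protein as Atp5g2 and Atp5g3, lay at 4.22, 4.35, 4.16 and 4.47 with IL-4 and ran from 2.71 to 3.70 untreated (median 3.19). No untreated array reached the IL-4 arrays, and the difference was 1.10 ± 0.24 (2.14-fold, adjusted p = 0.00240). Atp5g3 rose by 0.98 ± 0.25 (adjusted p = 0.00833) and Atp5g2 by 0.66. Of the catalytic subunits, Atp5a1 rose by 0.73 and Atp5b by 0.70 (adjusted p = 0.0106). Without the IL-4 array of experiment G the difference of Atp5b was 0.53 (adjusted p = 0.0859).

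Of the 17 genes not called under IL-4, 9 belong to complex I, 6 to complex IV and 2 are not subunits, and all 5 tissue isoforms kept are among them. The muscle isoforms Cox6a2 and Cox7a1 differed by 0.78 (adjusted p = 0.0657) and 0.51 (adjusted p = 0.163), the testis isoform Cox6b2 by 0.24, and Atp5s by 0.07. Cox4i2 was above background on 26 arrays and differed by -0.24 ± 0.60. Cox8b, the muscle isoform of subunit 8, was above background on 5 of 28 arrays, of which 4 were untreated and 1 had LPS, so it has only a bound in the other 4 groups.

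The IL-4 rise was present in each slide set that held both groups. The difference was above 0 for 79 of 81 genes in set A, 79 in B, 78 in C and 78 in G, with medians of 0.38, 0.43, 0.75 and 0.60. In all 4 sets at once 77 of the 81 genes were higher, against 21% of all genes. The 4 others were Atp5s, Cox4i2, Cox6b2 and Cox8b. With the slide set as a block, a choice made after seeing the data, 70 genes rose and 0 fell. Of all 22678 genes, 4556 were called in either direction with that block. The number of calls depended on the scale: 20 genes rose under median scaling, 43 under quantile normalization and 7 with another background correction (normexp), and none fell in any of them. Of all genes 1545, 2730 and 734 were called in these settings, in either direction. In all 3 scalings 20 of the 81 genes were called higher: Atp5e, Atp5g1, Atp5h, Atp5j2, Atp5k, Atp5l, Atp5o, Cox6b1, Cox6c, Cox7a2, Cox8a, Cyc1, Ndufa11, Ndufb2, Ndufb5, Ndufb6, Ndufb9, Ndufc1, Uqcrfs1 and Uqcrq. With normexp as well, the calls left were Atp5g1, Cyc1, Ndufa11, Ndufb2 and Ndufb5. The difference was above 0 in all 3 scalings for 80 of the 81 genes and below 0 in all 3 for 1. Among markers of other cells, 0 of 6 neutrophil genes (median difference -0.64), 0 of 5 T cell genes (-0.47) and 0 of 4 stromal genes (-0.38) were called under IL-4, and 1 of 5 B cell genes (median 0.14) fell. Their summed levels were 3.67 to 4.59 with IL-4 against 3.79 to 4.83 untreated for neutrophil genes, -1.95 to -0.94 against -2.30 to -1.17 for T cell genes, -2.29 to -1.12 against -1.88 to -0.86 for stromal genes and 0.38 to 1.40 against 1.09 to 2.08 for B cell genes, so each pair of ranges overlapped. The part of other cells in the IL-4 rise was not tested.

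**Figure D2:**
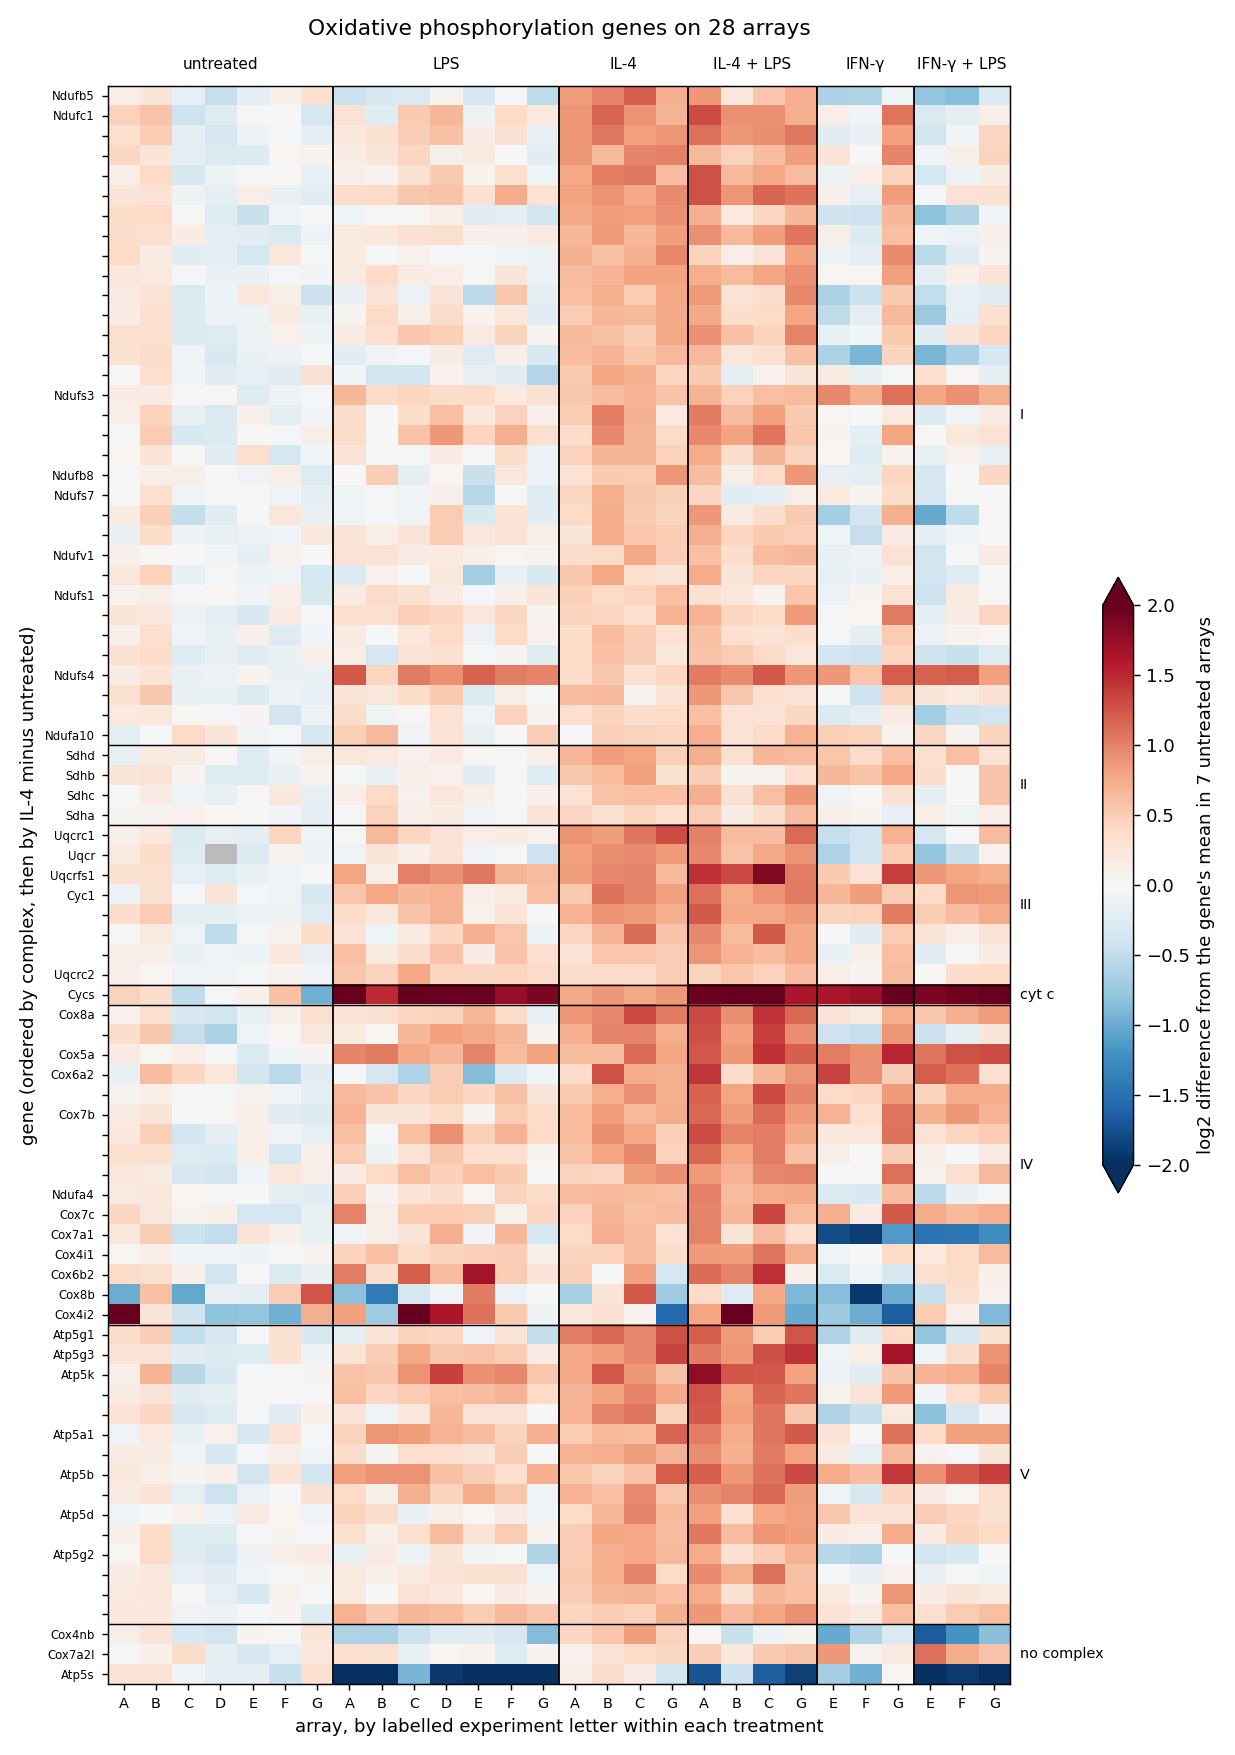
Differences of 80 of the 81 genes (a line each, ordered by complex, with the genes named in the text labelled) from their untreated mean on each of the 28 arrays (columns, ordered by group), as colour in log2 units. With IL-4, alone or before LPS, most lines are shifted up on every array, while with LPS or IFN-γ alone single genes stand out, with Cycs the largest rise in each (1.96 and 1.88) and Atp5s (-2.07) and Cox7a1 (-1.60) the largest falls.

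Under LPS alone the largest rise was that of cytochrome c and the largest fall that of Atp5s. On the 75th percentile scale, 24 of the 81 genes were called higher and 2 lower, where 20.8% of all genes were called higher and 21.4% lower; under quantile normalization 5 were higher and 39 lower, so the direction of the group as a whole is not settled by these arrays. The median difference was 0.25 (all genes 0.06) on the first scale and -0.29 on the second, and 0.31 with 13 higher and 1 lower under median scaling. The genes called higher in all 3 scalings, and with normexp, were Cycs, Ndufs4, Atp5k and Cox6b2, and the gene called lower in all of them was Atp5s. With the slide set as a block 41 genes were higher and 4 lower, where 12761 of all 22678 genes were called in either direction. Over all genes the calls in either direction were 10755 under quantile normalization and 8523 under median scaling.

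Cycs had the largest rise of the 81 genes under LPS. It ran from 3.28 to 4.82 in untreated cells and from 5.74 to 6.49 with LPS (median 6.22). The 2 groups of 7 arrays did not overlap, and the difference was 1.96 ± 0.19 (3.89-fold, adjusted p = 4.83e-09). All 3 probes of Cycs were bright, and they gave 1.82, 1.96 and 1.86. Ndufs4 ran from 3.05 to 3.44 untreated and from 3.61 to 4.41 with LPS, again without overlap, a rise of 0.97 ± 0.13 (adjusted p = 6.08e-07). A second probe of Ndufs4, above background on 1 array, brings the mean of both to 0.36 (adjusted p = 0.309). Atp5k, the small e subunit of the synthase, rose by 0.83 ± 0.19 (adjusted p = 0.000644), with an untreated range of 2.04 to 3.28 that overlapped the LPS range of 3.14 to 3.97. Cox6b2 rose by 0.80 ± 0.23 (adjusted p = 0.00493), and its ranges of -1.83 to -1.07 and -1.20 to 0.20 also overlapped.

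Atp5s fell under LPS. It ran from -0.70 to 0.06 in untreated cells and from -2.86 to -1.18 with LPS, with no overlap, a difference of -2.07 ± 0.24 (adjusted p = 9.16e-08). Cox4nb differed by -0.48 ± 0.15 (adjusted p = 0.0124). Neither is a subunit of an oxidative phosphorylation complex. By complex, 5 of 34 genes of complex I, 0 of 4 of complex II, 4 of 8 of complex III, 7 of 16 of complex IV and 7 of 15 of complex V were called higher. Several of these reversed under quantile normalization: Atp5b from 0.68 to -0.09, Atp5a1 from 0.66 to -0.10, Cyc1 from 0.51 to -0.01 and Cox4i1 from 0.42 to -0.36 (adjusted p = 0.00312 for the last). Cox5a, at 0.84 ± 0.12 (adjusted p = 3.50e-06) on the main scale, was at 0.09 there. Both values leave out its second, dim probe, above background on 16 arrays. Uqcr and Ndufb8, small subunits of complexes III and I, were among those furthest from passing, at 0.00.

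**Figure D3:**
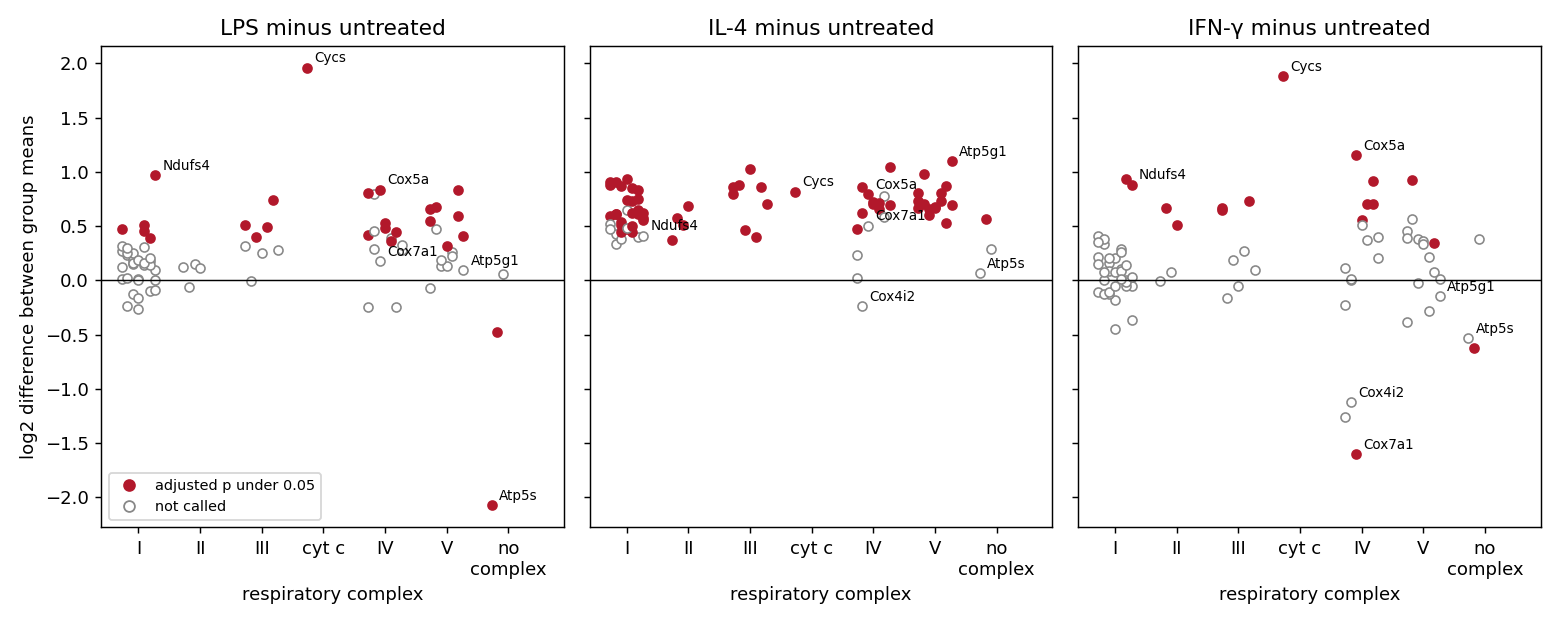
Log2 differences from untreated macrophages of the 81 genes by complex for LPS, IL-4 and IFN-γ alone; each point is 1 gene and called genes are set off from the rest. Under IL-4 the points of complexes II, III and V are all called and above 0, while under LPS and IFN-γ most lie near 0 and single genes stand out, Cycs and Atp5s under LPS (1.96 and -2.07) and Cycs and Cox7a1 under IFN-γ (1.88 and -1.60).

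Within the 7 slide sets, the LPS difference was above 0 for 55 to 75 of the genes, with medians of 0.11 to 0.40. The medians of all genes in these sets ran from -0.28 to 0.23. In sets A and B the medians of the 81 genes, 0.108 and 0.133, lay below those of all genes, 0.195 and 0.219. In every set 42 of the 81 genes were higher, where 23.9% of all genes were. Marker genes of other cells moved with LPS as well: the summed level of T cell genes was -2.30 to -1.17 untreated and 0.48 to 2.32 with LPS, where 1 of 5 was called (Lck, a T cell kinase, at 5.09), and that of stromal genes -1.88 to -0.86 and 1.29 to 2.45, where 1 of 4 was called (Pdgfrb, a growth factor receptor, at 6.07). Of 6 neutrophil genes 2 were called higher (median 0.48), with summed levels of 3.79 to 4.83 untreated and 4.07 to 5.62 with LPS, and of 5 B cell genes 1 was called lower, with summed levels of 1.09 to 2.08 and 0.23 to 1.27. Their part in the differences above was not tested.

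Under IFN-γ alone, 15 of the 81 genes were called higher and 2 lower, against 12.6% and 13.2% of all genes, while under quantile normalization 7 were higher and 14 lower. The median difference was 0.15 (all genes -0.29) and -0.19 under quantile normalization. Without the IFN-γ array of experiment G the median was -0.03, with 10 genes called higher and 5 lower. With the slide set as a block 32 genes were higher and 2 lower. Of all genes, 7820 were called in either direction with that block and 5587 under quantile normalization. Cycs lay at 5.87, 5.97 and 6.53 with IFN-γ, above the highest untreated value of 4.82, a rise of 1.88 ± 0.25 (adjusted p = 2.65e-06). Its 3 probes gave 1.73, 1.88 and 1.57. Cox5a lay at 6.77, 6.65 and 7.26 against an untreated range of 5.45 to 5.90, with no overlap, a rise of 1.15 ± 0.16 (adjusted p = 5.39e-06). A second, dim probe of Cox5a, above background on 16 arrays, is not part of this value. Ndufs3, a core subunit of complex I, rose by 0.93 ± 0.12 (adjusted p = 2.65e-06), from 3.18 to 3.59 untreated to 4.16 to 4.53 with IFN-γ. These 3 genes, with Ndufs4, Cox6a2, Cox7b and Cox7c, were called higher in all 3 scalings.

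The gene that fell with IFN-γ in all 3 scalings was Cox7a1, the heart and skeletal muscle isoform of subunit 7a of complex IV. It lay at -1.05, -1.14 and -0.40 with IFN-γ and at -0.73, -0.70 and -0.51 with IFN-γ and LPS, and ran from 0.24 to 1.23 in untreated cells and from 0.39 to 1.44 with LPS alone. Both IFN-γ groups lay wholly below all other groups, and the difference from untreated was -1.60 ± 0.24 (adjusted p = 1.62e-05). With IL-4 it lay at 1.14, 1.45, 1.36 and 1.03. Cox6a2 rose by 0.92 ± 0.30 (adjusted p = 0.0241), lost without the IFN-γ array of E (adjusted p = 0.172) or F (adjusted p = 0.0699). Cox4nb differed by -0.63 (adjusted p = 0.0199), also lost without E (adjusted p = 0.185) or F (adjusted p = 0.0537).

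In complex II, Sdhb and Sdhd rose with IFN-γ and Sdha and Sdhc did not pass the test. Sdhb lay at 4.89, 4.79 and 5.00 against an untreated range of 3.97 to 4.50, with no overlap, a rise of 0.67 (adjusted p = 0.00244), and Sdhd rose by 0.51 (adjusted p = 0.00444). Sdha ran from 1.97 to 2.24 with IFN-γ and from 1.96 to 2.23 untreated. In complex III, Cyc1 rose by 0.67, and Uqcrfs1 by 0.73 (adjusted p = 0.0137), which without the IFN-γ array of experiment G was 0.41 (adjusted p = 0.202). Ndufs4 rose by 0.88 ± 0.16 (adjusted p = 0.000224), with the mean of its 2 probes at -0.11. The IFN-γ array of experiment G, among the dim arrays of slide set G, stood apart from the other IFN-γ arrays. Within slide sets E, F and G the median difference of the genes was 0.13, 0.13 and 0.55. Of markers of other cells, 1 of 5 T cell genes was called higher with IFN-γ (list median -0.86), and 1 of 6 neutrophil genes (0.02), 1 of 5 B cell genes (-0.64) and 1 of 4 stromal genes (-0.84) were called lower. The summed level of B cell genes was 0.39 to 0.75 with IFN-γ, below the untreated 1.09 to 2.08, and that of stromal genes -2.02 to -1.89, below the untreated -1.88 to -0.86. The neutrophil sums, 3.85 to 5.60, and the T cell sums, -1.93 to -1.14, overlapped the untreated ranges. Their part in the differences was not tested.

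**Figure D4:**
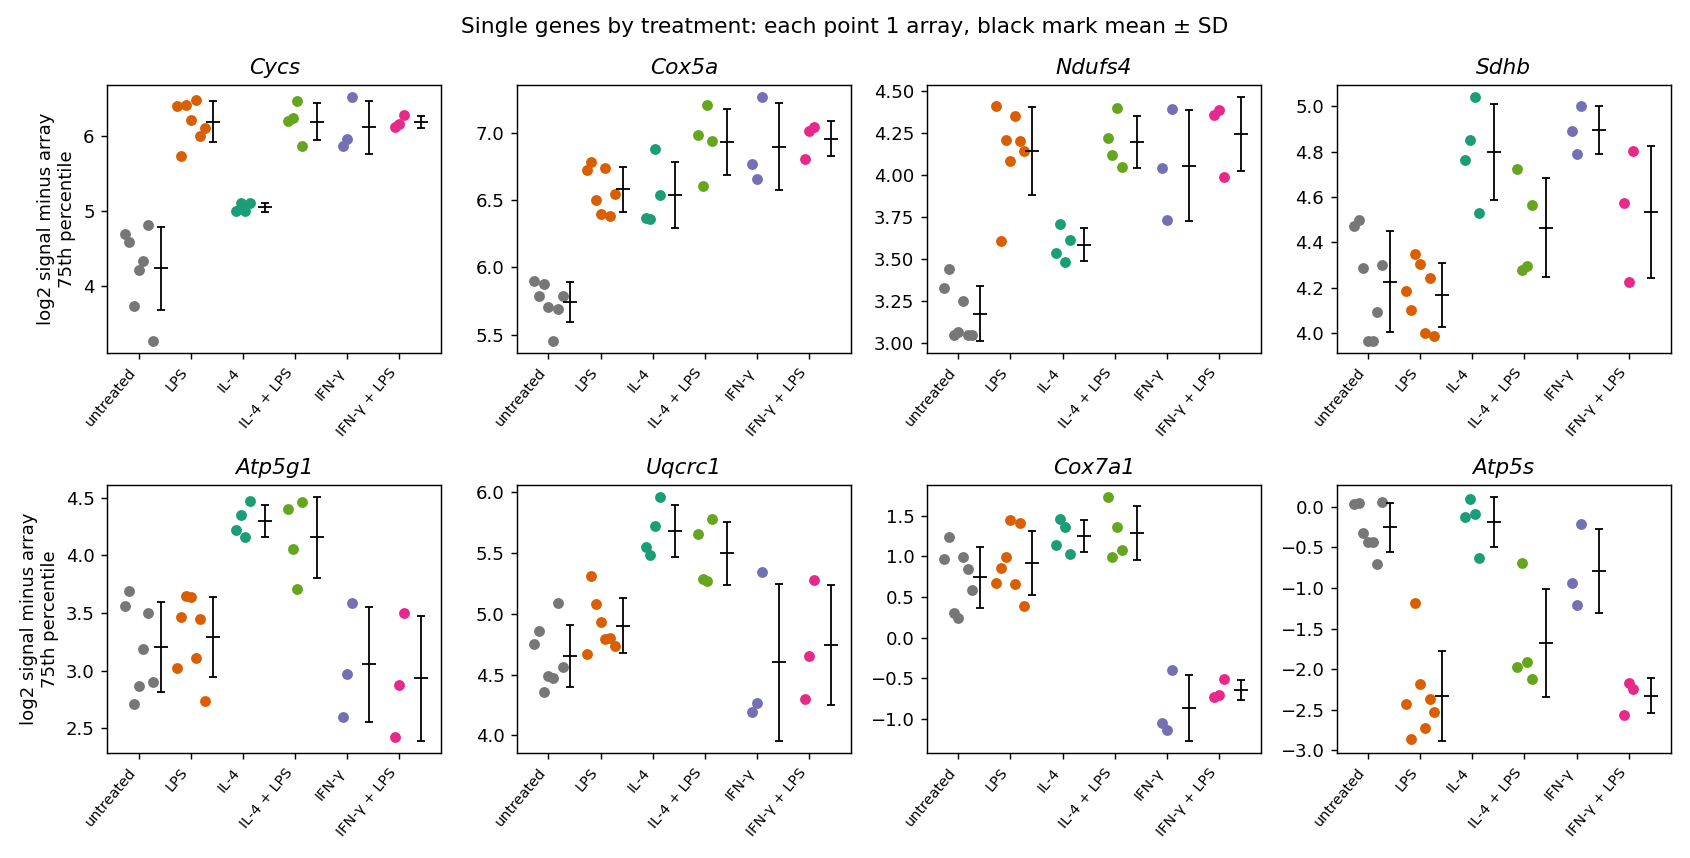
Levels of 8 genes (log2 signal relative to the array's 75th percentile, vertical axis) on every array by group, with the mean and SD of each group. Cycs is high in every group with LPS or IFN-γ and between those and untreated cells with IL-4, Atp5g1 and Uqcrc1 are high with IL-4, Cox7a1 is low with IFN-γ and Atp5s is low with LPS.

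Adding LPS to primed cells changed few of the genes. After IL-4, LPS raised 3 and lowered 3 of the 81, where 14.9% and 16.2% of all genes were called. Cycs rose from 5.00, 5.11, 5.00 and 5.11 to 6.21, 6.25, 6.47 and 5.87, a difference of 1.14 ± 0.26 (adjusted p = 0.000907). Ndufs4 rose by 0.61 (adjusted p = 0.00601) and Cox4i1 by 0.40 (adjusted p = 0.0243), the latter at -0.12 under quantile normalization and lost without the IL-4 array of A, B or G (adjusted p = 0.0512, 0.0518 and 0.0688) or the IL-4 plus LPS array of C (adjusted p = 0.0963). Atp5s fell, from -0.13, 0.09, -0.09 and -0.63 to -1.98, -0.69, -1.91 and -2.12, a difference of -1.49 (adjusted p = 0.000642). Without the IL-4 array of C or the IL-4 plus LPS array of B, 6 genes were higher, and without the IL-4 plus LPS array of G, 5. With the slide set as a block 13 were higher and 6 lower, and under quantile normalization 1 was higher and 27 were lower. Under quantile normalization 7857 of all genes were called in either direction.

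After IFN-γ, LPS raised 0 genes and lowered 1, against 5.59% and 6.2% of all genes, and 4 of the 81 had an unadjusted p under 0.05. The median difference was -0.06 (all genes 0.14), 0.14 without the IFN-γ array of G and 0.03 without the IFN-γ plus LPS array of E. A block for the slide set gave 4 higher and 2 lower. Atp5s was the gene that fell, from -0.94, -1.21 and -0.21 to -2.57, -2.17 and -2.24, a difference of -1.54 (adjusted p = 0.00633), which without the IFN-γ array of G was -1.25 (adjusted p = 0.0578). Cycs lay at 6.13, 6.17 and 6.29 with IFN-γ and LPS, within the range with IFN-γ alone, and differed by 0.07.

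The change with LPS differed between IFN-γ-primed and unprimed cells for 3 of the genes, all lower, where the test of the interaction called 3.02% of all genes higher and 5.23% lower. For Cycs the LPS change was smaller by 1.88 ± 0.35 after IFN-γ (interaction -1.88, adjusted p = 0.000856), and this was the call made in all 3 scalings. Ndufs4 had an interaction of -0.78 ± 0.23 (adjusted p = 0.0363) and Cox5a of -0.78 ± 0.23 (adjusted p = 0.0316). Without the IFN-γ array of experiment G they were -0.61 (adjusted p = 0.14) and -0.59 (adjusted p = 0.135). The call of Cox5a was also lost without the IFN-γ plus LPS array of E or F, and that of Ndufs4 without any of several arrays. Cox5a and Ndufs4 each have a second, dim probe, above background on 16 arrays and on 1. With the mean of all probes of a gene, fewer genes were called for this interaction. No gene of the 81 had a called interaction of IL-4 and LPS, where 0.904% and 0.679% of all genes were called higher and lower; 5 had an unadjusted p under 0.05, and the difference was below 0 for 75 of the 81, with a median of -0.16 (all genes 0.04).

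Between groups that all received LPS, cells primed with IL-4 kept higher levels. Of the 81 genes, 32 were called higher with IL-4 and LPS than with LPS alone and 0 lower, against 4.35% and 4.56% of all genes, and the difference was above 0 for 79 with a median of 0.46 (all genes 0.08). The difference was above 0 in all 3 scalings for 76 genes and below 0 in all 3 for 2. None passed the test in all 3, since median scaling gave 0 calls. Cox8a ran from 5.09 to 5.92 with LPS and from 6.18 to 6.69 with IL-4 and LPS, with no overlap, a difference of 0.88 (adjusted p = 0.000965). Ndufb5 ran from 0.53 to 1.10 and from 1.26 to 1.90, also without overlap, a difference of 0.86 (adjusted p = 0.00162). Atp5g1 differed by 0.86 (adjusted p = 0.0217), a call lost without the IL-4 plus LPS array of A or G or the LPS array of G. Cycs, at 5.74 to 6.49 and 5.87 to 6.47, differed by 0.00 (95% interval -0.47 to 0.46).

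The count of 32 rested on few arrays: it was 12 without the IL-4 plus LPS array of experiment A, 19 without that of C or G, and 20 without the LPS array of G. Within slide sets A, B, C and G, 67, 79, 77 and 79 of the genes were higher, with medians of 0.24, 0.47, 0.59 and 0.53. A block for the slide set gave 39 higher and 0 lower. In all 4 sets 66 of the 81 genes were higher, where 20.3% of all genes were. These comparisons share the LPS arrays with those above, and those against untreated cells share the untreated arrays.

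Primed with IFN-γ before LPS, 3 of the genes were called higher than with LPS alone and 6 lower, against 10.6% and 12.1% of all genes, and the median difference was -0.16 (all genes -0.23). Within slide sets E, F and G the median was -0.31, 0.09 and 0.08, so the sign differed between sets, and 16, 48 and 51 of the genes were higher. With the slide set as a block 7 were called higher and 6 lower, among them all 3 of the higher calls and 4 of the 6 lower ones. Cox7a1 was lower by this test in all 3 scalings, at -1.57 (adjusted p = 3.32e-05). Cox6a2 was higher by 1.12 (adjusted p = 0.00708), lost without the IFN-γ plus LPS array of E or F (adjusted p = 0.0697 and 0.0511), and Cox7a2l by 0.74 (adjusted p = 0.00379), lost without E (adjusted p = 0.0581). Cycs differed by 0.00 (95% interval -0.52 to 0.51). Without the IFN-γ plus LPS array of E 2 genes were called lower, and without that of F, or the LPS array of D, 3.

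Set directly against each other, IL-4 cells had 30 of the 81 genes higher than IFN-γ cells and 1 lower, against 14.8% and 13% of all genes, with a median of 0.49 (all genes 0.30). In G, the only slide set with both groups and 1 array of each, 47 genes were higher and 34 lower, with a median of 0.07. Both arrays are among the dim arrays of that set, and the IFN-γ array there is the array that stood apart. With the slide set as a block 23 genes were higher and 2 lower, and 18 of the 30 higher calls were kept. The count was 14 without the IFN-γ array of E or F and 52 without that of G, and 2 higher and 2 lower under median scaling. In all 3 scalings Cox7a1 was higher with IL-4 (2.11, adjusted p = 1.02e-06), as was Ndufb5 (1.38, adjusted p = 1.54e-05), and Cycs was lower, at -1.07 ± 0.28 (adjusted p = 0.00448).

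**Figure D5:**
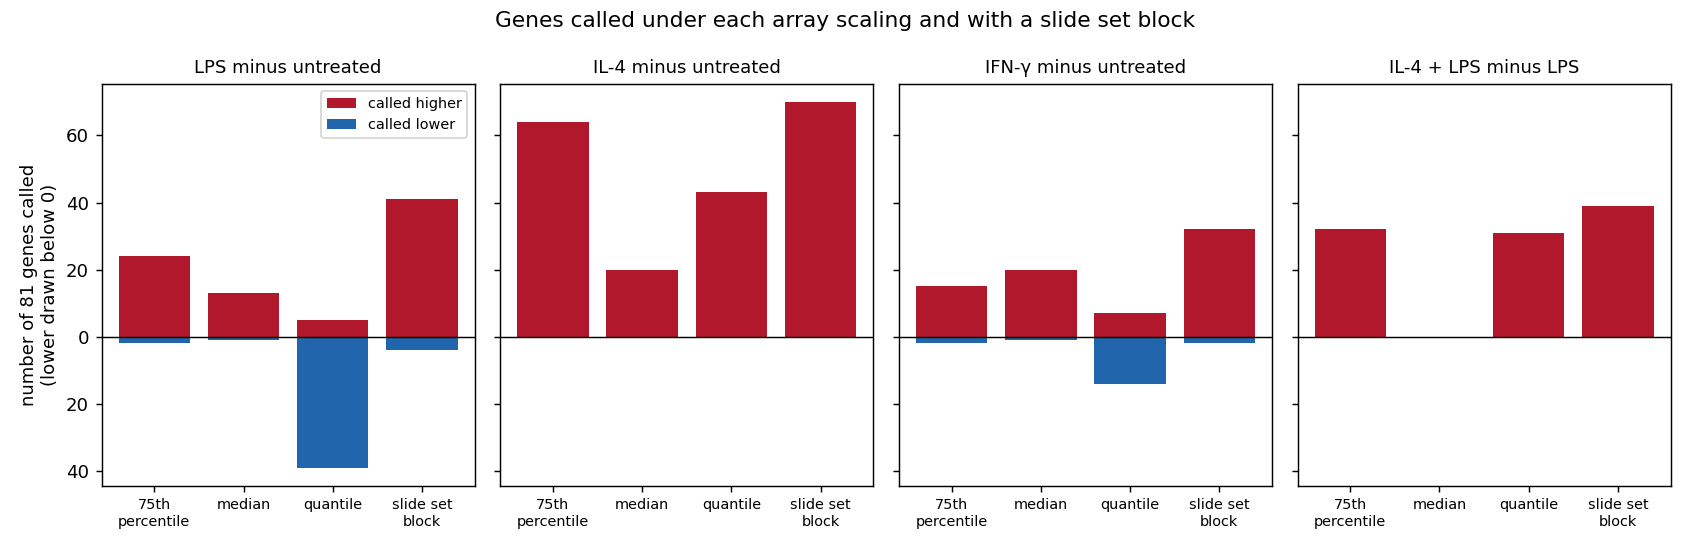
Number of the 81 genes called higher and lower (bars from 0) in 4 comparisons under the 75th percentile scale, median scaling, quantile normalization and the slide set as a block. For IL-4 against untreated the calls are all higher, at 64, 20, 43 and 70, while for LPS against untreated they turn from 24 higher and 2 lower to 5 higher and 39 lower under quantile normalization.

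Other mitochondrial gene lists, chosen with earlier results of these data known, were read under IL-4 against the 5.71% of all genes called higher and 5.53% called lower. Of 18 citrate cycle genes 7 were called higher and 0 lower (median 0.59), of 19 import genes 7 and 0 (median 0.57), of 75 mitochondrial ribosomal genes 18 and 0 (median 0.38), and of 18 fatty acid oxidation genes 5 and 0 (median 0.39). Of 15 coenzyme Q and carrier genes 5 rose and 1 fell, of 18 assembly factors 1 rose, and of 22 regulators of mitochondrial biogenesis 1 rose and 1 fell, the last 2 lists near the share over all genes. Each of these medians was above 0 in all 3 scalings, though under median scaling the counts higher were 0, 3, 1, 2, 1, 1 and 1. Mdh2 and Fh1, malate dehydrogenase and fumarase of the citrate cycle, rose by 0.85 and 0.75. Etfa, which passes electrons from fatty acid oxidation to coenzyme Q, rose by 1.01, Slc25a5, an ADP/ATP carrier, by 0.94, Timm8a1, an import chaperone, by 1.87, and Tmem126b, an assembly factor of complex I, by 1.07. Of these, Etfa, Slc25a5, Timm8a1 and Tmem126b were called in all 3 scalings.

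Under LPS, where 20.8% of all genes were called higher and 21.4% lower, 5 of 18 citrate cycle genes were higher and 1 lower, 17 of 75 ribosomal genes higher and 14 lower, 9 of 18 assembly factors higher and 4 lower, and 3 of 18 fatty acid oxidation genes higher and 5 lower. The ribosomal counts lie near the share over all genes. Sco1, which delivers copper to complex IV, rose by 2.06 with LPS and by 3.10 with IFN-γ, and Cox18, which inserts a complex IV subunit into the membrane, by 1.69 with LPS. Bcs1l, which places the Rieske protein in complex III, differed by -1.07 with LPS, and Tmem126b by -1.02. With IFN-γ, where 12.6% of all genes were called higher and 13.2% lower, 5 of 18 citrate cycle genes were higher and 4 lower, among them Idh2, mitochondrial isocitrate dehydrogenase, at -2.94, and Suclg2, a succinyl-CoA ligase subunit, at -1.49, the first called in all 3 scalings.

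Among the regulators, Ppargc1b, the coactivator PGC-1β, rose under every single treatment and in all 3 scalings: by 2.40 ± 0.38 with IL-4 (adjusted p = 6.35e-05), by 1.91 ± 0.32 with LPS (adjusted p = 2.31e-05) and by 1.90 ± 0.42 with IFN-γ (adjusted p = 0.00117). Esrra, the oestrogen-related receptor ERRα, rose by 0.71 with LPS (quantile adjusted p = 0.0604) and by 1.12 with IFN-γ, and differed by 0.38 with IL-4 (adjusted p = 0.253). Hif1a, the hypoxia factor, rose by 1.49 with LPS and by 2.56 with IFN-γ and differed by -0.05 with IL-4. Of all 22 regulators, 4 were called higher and 6 lower with LPS, where 20.8% and 21.4% of all genes were. With IFN-γ 3 were higher and 5 lower, where 12.6% and 13.2% of all genes were. For the mitochondrial DNA machinery, mean levels untreated and with LPS were -2.44 and -4.80 for Peo1 and -0.73 and -2.26 for Polg2. They were 1.07 and 0.19 for Polrmt, -0.08 and -0.94 for Tfb2m and 4.07 and 4.34 for Tfam. Nrf1, Gabpa, Tfam and Yy1, factors of the promoter words above and of mitochondrial DNA, passed no test against untreated cells on the main scale, with IL-4 differences of -0.19, 0.09, 0.11 and -0.08. All 9 genes with an NRF1 word in the promoter were called higher with IL-4, with a median of 0.82, and so were 43 of the 57 genes without it, with a median of 0.62. These are counts beside each other, with no test.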

How the data were processed

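RNA of 28 macrophage cultures was measured on 1-colour Agilent arrays. The deposited scanner files hold spot intensities, read with Agilent Feature Extraction 9.5.1 per the submitters' processing notes; per the file headers the processed signal is an intensity after background subtraction and detrending within the array, and flag columns hold 0 or 1 calls. From these, the log2 of the processed signal minus the log2 of the array's 75th percentile was taken. Outlier spots were left out, spots of a probe were averaged, and the brightest probe stood for a gene. Uqcr lacks 1 value this way, on the untreated array of experiment D.

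All 22678 genes with a probe well above background on 3 or more arrays were fitted with limma 3.58.1 (R 4.3.3) in 1 model of 6 group means and 10 comparisons, with Benjamini-Hochberg adjustment over all of them (22677 for comparisons with IFN-γ), and called at an adjusted p under 0.05. On simulated data for LPS against untreated, 170 of 200 changed genes were recovered with 11 false calls among 22678 genes. These rates hold only for the size of change and the noise simulated, with 7 arrays in each group. They give no rate for smaller changes, for groups of 3 or 4 arrays, or for arrays of a slide set that deviate together. Named are the genes with the largest changes among those called in a comparison, those furthest from passing, and set lists of carriers, catalytic subunits, isoforms and regulators. The genes and lists were chosen with earlier results of these data known; the treatment marker genes and the slide set were chosen after seeing the data.

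Among comparisons with 3 or more shared letters, same-lettered arrays deviated together throughout in IL-4 plus LPS against IL-4 (correlation of deviations 0.153 to 0.728) and IFN-γ plus LPS against IFN-γ (0.282 to 0.64); arrays of the same slide set did so in each comparison between 2 groups (0.129 to 0.816). IL-4 against IFN-γ shares 1 pair, the same by letter and set (0.445). The deposited log2 value table of the whole series was not used, because 2 of its 28 columns followed the scanner file of the sample they name (column medians -0.266 to 0.59), and its centring stays unknown. Of its columns, 0 belonged to no sample. Promoters were read with Python 3.11.15 and figures drawn with matplotlib 3.10.9.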

Additional observations from a re-analysis of the deposited data

Results flagged for a closer look

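In groups of 4 to 10 arrays, 11 of 220 sets of levels held an array far from the others by Dixon's criterion, about the 1 in 20 that chance gives. With IL-4, the array of experiment G was highest for Atp5b, the catalytic beta subunit of complex V, at 7.60 (others 6.85 to 6.96), and for Uqcrc2, a core subunit of complex III, at 4.70 (others 4.54 to 4.56), and lowest for Cox4i2 at -6.39 (others -4.78 to -4.54). The IL-4 array of experiment A was lowest for Ndufa10, an accessory subunit of complex I, at 1.87 (others 2.29 to 2.33) and for Sdhc at 3.37 (others 3.66 to 3.68). With IL-4 and LPS, the array of B was lowest for Atp5d, the delta subunit of complex V, at 3.23 (others 3.68 to 3.73) and highest for Atp5s at -0.69 (others -2.12 to -1.91).

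With LPS alone, the array of experiment C was highest for Atp5s at -1.18 (others -2.86 to -2.18) and for Uqcrc2 at 4.96 (others 4.57 to 4.73), and that of B was lowest for Ndufs4 at 3.61 (others 4.09 to 4.41). The untreated array of B was highest for Ndufs7, a core subunit of complex I, at 4.06 (others 3.54 to 3.72).

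The change with LPS differed between IFN-γ-primed and unprimed cells by the test of the interaction for Cycs (-1.88), Cox5a (-0.78) and Ndufs4 (-0.78). The direction for each was a smaller LPS change after IFN-γ.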

How the results depend on the processing

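Counts of the 81 genes called, higher and lower together, depended on the settings, and no cause of these changes was tested. For single treatments against untreated cells, parentheses give the calls over all genes under the same setting. For LPS against untreated the count was 26 (9574), against 10 with normexp (5572), 14 with median scaling (8523) and 44 with quantile normalization (10755). It was 41 (12229) with the scan day and 45 (12761) with the slide set as a block. For IL-4 against untreated it was 64 (2551), against 7 with normexp (734) and 20 with median scaling (1545). With the shared experiment letters only it was 28 (1686), and with the shared slide sets only 24 (1547). For IFN-γ against untreated it was 17 (5849), against 9 with normexp (2687) and 28 (7197) and 34 (7820) with the scan day and slide set as blocks. For IL-4 plus LPS against IL-4 it was 6, against 2 with normexp, 3 with median scaling, 28 with quantile normalization, 10 among genes above background on all 28 arrays, and 18, 15 and 19 with the slide, scan day and slide set as blocks. For IFN-γ plus LPS against IFN-γ it was 1, against 0 with normexp or only the groups compared, 6 with quantile normalization, 2 with the mean of all probes, and 9, 5 and 6 with those blocks. For IL-4 plus LPS against LPS it was 32, against 3 with normexp, 0 with median scaling, 12 with only the groups compared and 11 with the shared slide sets. For IFN-γ plus LPS against LPS it was 9, against 4 with normexp, 3 with median scaling, 15 with the slide as a block, 5 with only the groups compared and 3 with the shared slide sets. The interaction of IFN-γ and LPS gave 3, against 1 with normexp, either other scaling, no filter, the mean of all probes or shared letters or sets, 5 among genes above background on all 28 arrays, and 11, 8 and 10 with the blocks. IL-4 against IFN-γ gave 31, against 8 with normexp or only the groups compared, 4 with median scaling and 60 with quantile normalization; it shares only 1 letter and set, so those subsets could not be fitted. The interaction of IL-4 and LPS gave 0 under every alternative run.

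With the experiment letter as a replicate block, IL-4 against untreated gave 38, IL-4 plus LPS against LPS 13 and IL-4 against IFN-γ 12; it moved no other count by over 1.5 times. Whether a letter marks a shared source is not given in the labels.

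Leaving out 1 array gave 23 to 31 calls for LPS against untreated, 46 to 66 for IL-4, 15 to 18 for IFN-γ, 4 to 9 for IL-4 plus LPS against IL-4, 1 to 3 for IFN-γ plus LPS against IFN-γ, 12 to 31 and 3 to 11 against LPS for the same groups, 0 to 0 and 1 to 4 for the interactions with IL-4 and IFN-γ, and 14 to 52 for IL-4 against IFN-γ. Reversed were Cyc1 (-0.011), Cox4i1 (-0.356), Atp5a1 (-0.095) and Atp5b (-0.091) under LPS and Cox4i1 (-0.115) under IL-4 plus LPS against IL-4, all with quantile normalization, and with the mean of all probes Sdhc under IL-4 (-0.078) and Ndufs4 under IFN-γ (-0.107). The deposited value table was not run. Dim probes limit Cox4i2 and Cox8b.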
